A study of Mus musculus with 6 samples.

Results

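The collagen genes of the mouse were examined in the cochlea of mice with and without *Cmah*. Every probe whose gene symbol began with Col, a number, the letter a and a second number was taken from the deposited normalized table, and each symbol was represented by its probe with the highest mean over the 6 arrays. This gave 61 probes for 37 of the 18138 symbols on the array. One of the 37, *Col4a3bp*, encodes the ceramide transfer protein and is no collagen, so it was set aside (log2 fold change -0.02), which left 36 collagens. They were grouped as 8 fibrillar collagens, 9 of the basement membrane, 7 of cartilage and 12 others.

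Gene expression had been compared between 3 WT and 3 *Cmah*-null mice, all C57BL/6 and 12 months old, to find expression profiles that go with age-related hearing loss. The null mice carry the tm1Ykoz knockout allele of *Cmah*, the hydroxylase that makes the sialic acid Neu5Gc, and no treatment of either group is stated. Labelled cRNA made from total RNA of the cochlear tissue of each sample was hybridized to 1 Illumina MouseRef-8 v2 array with 25697 probes. How closely the cochlea was trimmed from its bone is not given in the sources used here. The p values measure the spread between these samples.

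Collagens are triple-helical proteins of the extracellular matrix. Fibrillar collagens build the fibres of bone, ligament and connective tissue, type IV chains form the sheet-like network of basement membranes, and types II, IX and XI build the fibrils of cartilage. In the cochlea, types II, IX and XI also make the fibrils of the tectorial membrane that lies over the hair cells, and type IV networks underlie the vessels of the stria vascularis and the spiral limbus. Inherited defects of type II, IX and XI chains cause Stickler syndrome, and those of *COL4A3*, *COL4A4* and *COL4A5* cause Alport syndrome, both with hearing loss.

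A probe was called detected at a detection p under 0.05, and 13873 to 15223 probes per array were. Per probe, WT replicate 1 and *Cmah*-null replicates 1 and 2 had a median of 32 or 34 beads, and the remaining arrays 38 or 39. No pair of arrays resembled each other as much as *Cmah*-null replicates 1 and 2. Over the collagens detected on all arrays, the SD of their log2 difference was 0.117, against 0.672 to 1.27 for the other pairs. Some of the results that rest on the null group are therefore also given with the average of these 2 samples used as 1 sample. The *Cmah* probe had log2 signals of 7.27, 7.28 and 7.87 in WT samples and 7.95, 7.98 and 7.27 in null samples, and it was detected in 1 and 2 of them. It lies too near background to check the genotypes. Of 7 hair cell markers 3 were detected on all arrays and 3 (*Pou4f3*, *Slc26a5* and *Strc*) on none, and of 12 markers of the non-sensory cochlea 6 were detected on all and 2 (*Tectb* and *Otor*) on none.

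Of the 36 collagens, 22 were detected on all 6 arrays, 10 on some of them and 4 on none (*Col9a3*, *Col13a1*, *Col19a1* and *Col25a1*). Each array detected 26 or 27. In the fibrillar class 5 of 8 were detected on every array, in the basement membrane class 6 of 9, in the cartilage class 2 of 7 (*Col2a1* and *Col9a2*) and among the others 9 of 12. Log2 signals are quantile-normalized, and differences are null minus WT. They were tested with limma, with Benjamini-Hochberg adjustment over all probes.

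*Cmah*-null samples had more *Col9a2*, a chain of the fibril-associated type IX collagen of cartilage. By the probe used for each symbol, it was the only collagen that passed 1.5-fold with an unadjusted p under 0.05. At that rule 1 of 36 collagens was higher and 0 were lower, where 1.61% of all symbols were higher and 1.46% lower. At an unadjusted p under 0.05 alone, 4 collagens were higher (*Col8a2*, *Col9a2*, *Col14a1* and *Col23a1*; 5.58% of all symbols) and 1 was lower (*Col28a1*; 3.49%). No collagen, and 0% of all symbols, had an adjusted p under 0.05. The 3 WT and 3 null signals did not overlap for 5 collagens that were higher in null samples, where 10% of symbols were, and for 1 that was lower, where 6.67% were. Among the symbols detected on all arrays, the shares were higher: 2.73% and 2.54% at 1.5-fold with p, 8.33% and 5.15% at p alone, and 12.1% and 7.43% without overlap (higher and lower in null samples). The 5 were *Col9a1*, *Col9a2*, *Col11a2*, *Col14a1* and *Col23a1*. The counts of collagens lay within a few genes of the background shares, and the collagens together had a median change of -0.00 on the log2 scale, with 17 higher and 19 lower, beside 0.01 over all symbols.

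All 8 fibrillar collagens had lower means in the null samples, at a median of -0.35 on the log2 scale and with none past a test. Their changes ranged from -1.29 to -0.00, and 3 of the 8 were detected on only some arrays. Without WT replicate 1, *Col1a1* turned to 0.59 and *Col5a1* to 0.04. The basement membrane collagens had a median of 0.12 with 7 higher and 2 lower, those of cartilage 0.13 with 4 higher and 3 lower, and the others 0.09 with 6 higher and 6 lower. The 8 fibrillar chains are not independent of each other, since they were measured on the same 6 arrays. With 1 sample left out the fibrillar median ranged from -0.67 (without WT replicate 3) to -0.018 (without WT replicate 2). Leaving out *Cmah*-null replicate 3 turned the basement membrane median to -0.12 and that of the others to -0.06, and leaving out WT replicate 3 turned the median of the others to -0.13. With *Cmah*-null replicates 1 and 2 averaged, the medians were -0.28 (fibrillar), 0.24 (basement membrane), 0.14 (cartilage) and 0.15 (others).

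**Figure D1:**
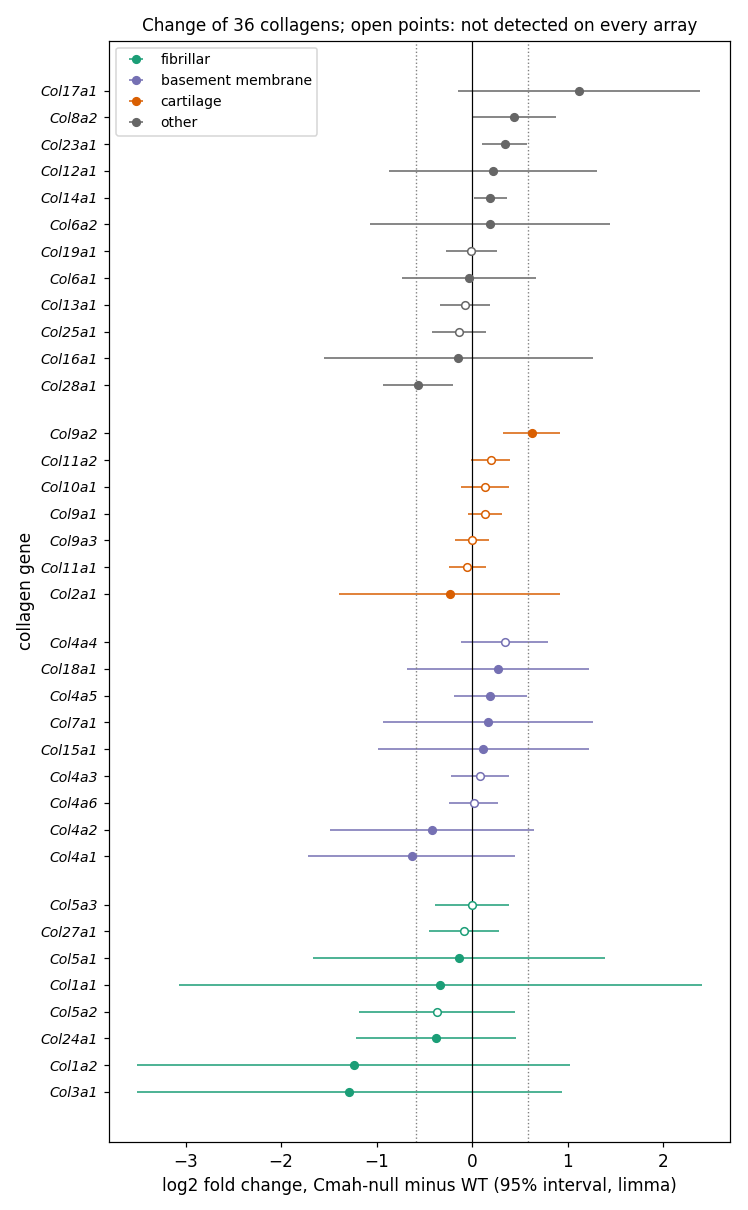
Log2 fold change of the 36 collagens, *Cmah*-null minus WT, with the 95% interval of limma, by class. Filled points were detected on all 6 arrays and open points on fewer, and dotted lines mark 1.5-fold. The interval of *Col9a2* lies above 0 (0.32 to 0.92), while that of *Col1a1* spans -3.07 to 2.40.

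The upstream sequences of 5 collagens are shown because the results turn on them. *Col9a2* passed the rule, *Col1a2* and *Col3a1* had the lowest log2 fold changes of all, *Col17a1* had the highest and *Col28a1* was lower without overlap. Each is the 250 bases before the first start that RefSeq lists for the gene in the build GRCm38.p6, read 5′ to 3′ on the gene's strand. They lie at chr6:4505368-4505617 on the plus strand for *Col1a2*, chr1:45311288-45311537 on the plus strand for *Col3a1*, chr4:121039316-121039565 on the plus strand for *Col9a2*, chr19:47692043-47692292 on the minus strand for *Col17a1* and chr6:8192618-8192867 on the minus strand for *Col28a1*. Capitals mark matches on either strand to TATAAA (the TATA box), to the CCAAT box, to the GC box GGGCGG or to the sequence AACAAT that SOX factors bind.
*Col1a2*: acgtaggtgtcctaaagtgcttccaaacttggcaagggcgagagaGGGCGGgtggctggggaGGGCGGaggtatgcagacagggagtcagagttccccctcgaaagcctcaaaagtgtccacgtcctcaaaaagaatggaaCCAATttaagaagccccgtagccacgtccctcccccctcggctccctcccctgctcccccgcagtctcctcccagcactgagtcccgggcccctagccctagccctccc
*Col3a1*: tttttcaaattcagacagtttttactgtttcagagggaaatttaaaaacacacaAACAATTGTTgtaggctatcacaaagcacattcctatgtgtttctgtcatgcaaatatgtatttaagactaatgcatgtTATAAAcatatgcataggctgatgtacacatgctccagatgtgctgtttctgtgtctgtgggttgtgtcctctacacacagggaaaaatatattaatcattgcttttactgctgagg
*Col9a2*: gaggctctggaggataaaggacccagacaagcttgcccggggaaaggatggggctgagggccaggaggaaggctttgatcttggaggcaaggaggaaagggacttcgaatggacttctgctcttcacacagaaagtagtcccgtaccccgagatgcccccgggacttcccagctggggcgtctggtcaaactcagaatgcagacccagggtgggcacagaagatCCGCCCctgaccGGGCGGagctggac
*Col17a1*: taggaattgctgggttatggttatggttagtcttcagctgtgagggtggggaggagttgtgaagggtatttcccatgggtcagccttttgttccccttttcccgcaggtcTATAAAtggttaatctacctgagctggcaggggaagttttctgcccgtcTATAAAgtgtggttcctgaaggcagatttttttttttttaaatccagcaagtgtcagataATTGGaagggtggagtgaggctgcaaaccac
*Col28a1*: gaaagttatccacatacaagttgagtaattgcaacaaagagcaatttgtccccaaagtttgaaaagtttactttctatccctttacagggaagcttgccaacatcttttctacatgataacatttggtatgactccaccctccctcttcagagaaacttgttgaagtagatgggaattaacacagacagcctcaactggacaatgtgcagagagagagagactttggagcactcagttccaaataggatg
The *Col1a2* window held 2 GC boxes and 1 CCAAT, and that of *Col3a1* held 1 TATAAA and an overlapping pair of AACAAT matches, 1 on each strand. In the *Col9a2* window 2 GC boxes lay close to the start, at 26 and 14 bases before it, and no AACAAT was among its letters. The *Col17a1* window held TATAAA 2 times and CCAAT on the strand opposite to the one printed (as ATTGG), and none of these motifs was found in that of *Col28a1*. A promoter was listed for 29 of the 36 collagens. GGGCGG was found in 17 of the 29, beside 32.9% of the promoters of 27025 genes, CCAAT in 11, beside 34.5%, TATAAA in 5, beside 13.0%, and AACAAT in 1, beside 9.65%. The collagen windows had a median GC content of 60.4%, and all windows 52.0%. A match says only that these letters are present.

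Among the fibrillar collagens, the chains of type I and type III collagen had the largest differences between samples of one genotype. *Col1a1*, the α1 chain of type I collagen and the main protein of bone, had log2 signals of 15.33, 14.19 and 10.91 in WT replicates 1, 2 and 3 and of 12.97, 12.95 and 13.52 in *Cmah*-null replicates 1, 2 and 3. The WT samples thus differed by 4.42 on the log2 scale, which is 21.4-fold, and all null samples lay between them. Mean signals were 13.48 ± 2.29 for WT and 13.15 ± 0.32 for null samples (SD, n = 3 each). The log2 fold change was -0.33 (SE 1.11, limma adjusted p = 0.949). Without WT replicate 3, the lowest, it was -1.61 and past 1.5-fold with p, and without WT replicate 1, the highest, it was 0.59.

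*Col1a2* encodes the α2 chain, which joins *Col1a1* chains in type I collagen. Its log2 signals were 11.90, 13.41 and 10.74 in WT and 9.96, 10.01 and 12.36 in null samples. *Cmah*-null replicates 1 and 2 were the lowest of all, and replicate 3 lay inside the WT range. The log2 fold change was -1.24 (SE 0.92, 95% interval -3.51 to 1.03, limma adjusted p = 0.741). *Col3a1*, which forms type III fibrils in skin, vessels and other soft tissue, had log2 signals of 10.57, 12.38 and 10.00 in WT and 9.03, 8.75 and 11.32 in null samples. As for *Col1a2*, *Cmah*-null replicate 3 was far above the other 2 null samples. Its log2 fold change was -1.29 (SE 0.90, limma adjusted p = 0.726). Without *Cmah*-null replicate 3, *Col1a2* fell by 2.03 and *Col3a1* by 2.10 on the log2 scale, both past 1.5-fold with p, so that call is decided by 1 sample. With null replicates 1 and 2 averaged, the values were -0.84 and -0.88.

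*Col5a1*, a chain of type V collagen that sets the width of type I fibrils, had log2 signals of 12.30, 12.56 and 10.98 in WT and 11.20, 11.31 and 12.93 in null samples, and a log2 fold change of -0.14. The highest and the lowest sample were thus a null and a WT sample. *Col5a2*, its partner chain, was detected on 2 arrays of each group (7.35 to 8.65 in WT and 7.50 to 7.88 in null samples) and had a log2 fold change of -0.37. Without WT replicate 3 it also passed 1.5-fold with p, downwards. *Col24a1*, a minor fibrillar chain found in developing bone, had log2 signals of 9.28, 10.32 and 9.04 in WT and 9.19, 9.0 and 9.31 in null samples (log2 fold change -0.38). WT replicate 2 stood above the other 5 samples. *Col27a1* (-0.08) and *Col5a3* (-0.00) were near background on some arrays.

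**Figure D2:**
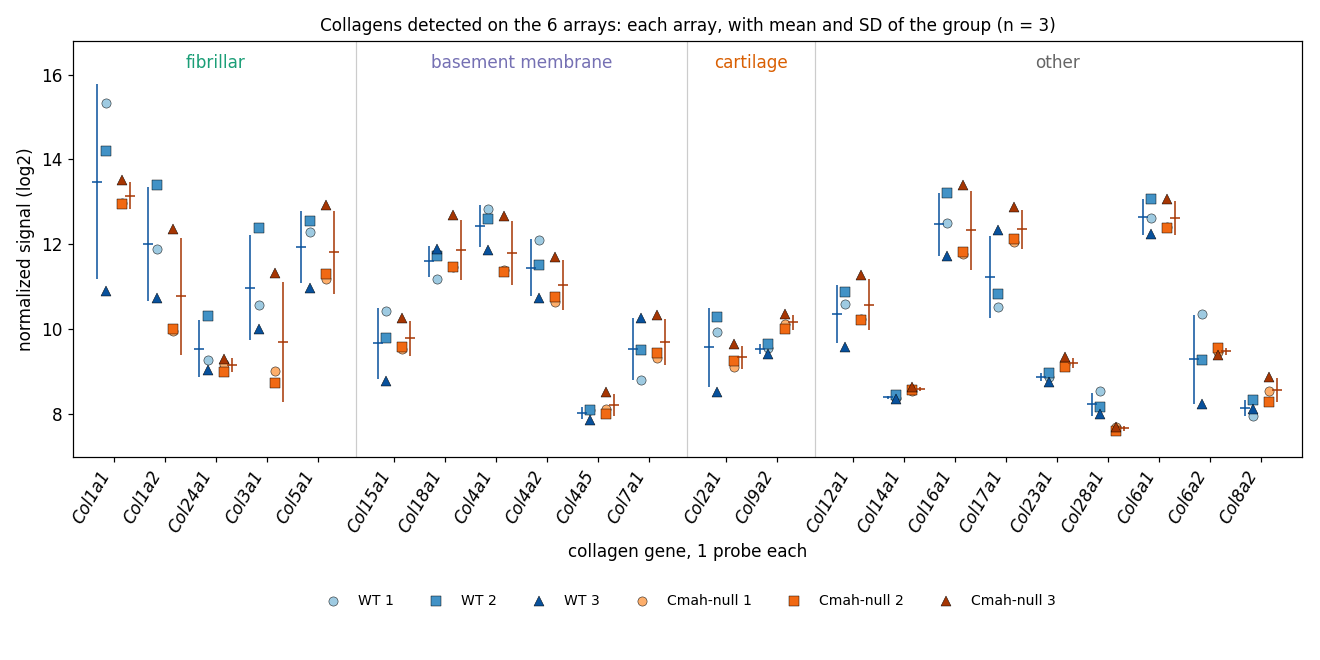
Normalized log2 signal of the 22 collagens detected on all 6 arrays, by class, with 1 symbol per array and the mean and SD of each group (n = 3) beside it. Heights of different genes come from different probes and are not comparable. *Col1a1* ranges from 10.91 to 15.33 within WT, while the 3 null signals of *Col9a2* all lie above the 3 WT signals.

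Of the basement membrane collagens, *Col4a1* and *Col4a2* had lower means in null samples and the others had higher ones. *Col4a1* and *Col4a2* encode the chains of the type IV network found in nearly all basement membranes, and the genes lie head to head on chromosome 8, where RefSeq lists their first starts on opposite strands and 21 bases apart. *Col4a1* had log2 signals of 12.84, 12.60 and 11.88 in WT and 11.39, 11.35 and 12.67 in null samples. *Col4a2* had log2 signals of 12.09, 11.53 and 10.75 in WT and 10.64, 10.76 and 11.71 in null samples. Both were low in *Cmah*-null replicates 1 and 2, and replicate 3 lay within the WT range for each. The log2 fold changes were -0.63 (SE 0.44) and -0.42 (SE 0.43), and the limma adjusted p values were 0.721 and 0.807. Without *Cmah*-null replicate 3, *Col4a1* fell by 1.07 on the log2 scale and passed 1.5-fold with p. With null replicates 1 and 2 averaged, *Col4a1* was at -0.42 and *Col4a2* at -0.25.

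The type IV chains linked to Alport syndrome were dim. *Col4a5*, whose protein replaces α1 and α2 networks in kidney and cochlea together with α3 and α4, had log2 signals of 8.11, 8.10 and 7.87 in WT and 8.12, 8.01 and 8.52 in null samples. Its log2 fold change was 0.19, and the 95% interval of -0.19 to 0.58 stayed within 1.5-fold. *Col4a4* was detected on 2 WT and 3 null arrays (7.41, 7.71 and 7.48 in WT and 7.73, 7.64 and 8.25 in null samples), with a log2 fold change of 0.34 (SE 0.18). *Col4a3* (0.08) was detected on 1 array and *Col4a6* (0.01) on 1 array of each group. Both lay near background.

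*Col7a1*, which makes the anchoring fibrils under skin, had log2 signals of 8.81, 9.52 and 10.28 in WT and 9.33, 9.44 and 10.34 in null samples (log2 fold change 0.17). *Col15a1* and *Col18a1* encode the multiplexins, which sit at the outer face of basement membranes, and *Col18a1* is the source of endostatin. *Col15a1* had log2 signals of 10.44, 9.81 and 8.79 in WT and 9.53, 9.58 and 10.27 in null samples (0.12). *Col18a1* had log2 signals of 11.19, 11.74 and 11.89 in WT and 11.47, 11.47 and 12.69 in null samples (0.27), and its sign turned to -0.14 without *Cmah*-null replicate 3, the highest. None of these 3 had groups that stood apart.

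In the cartilage class, *Col9a2* had log2 signals of 9.55, 9.66 and 9.41 in WT and 10.12, 10.01 and 10.37 in null samples. Every null sample was above every WT sample. The smallest gap was larger than the range within WT (0.25) and about as large as that within null samples (0.35). Mean signals were 9.54 ± 0.12 for WT and 10.16 ± 0.18 for null samples (SD, n = 3 each). The log2 fold change was 0.62 (SE 0.12, 95% interval 0.32 to 0.92), or 1.54-fold, with a limma p of 0.00247 and an adjusted p of 0.397. The two-sided exact permutation test over the 6 samples gave p = 0.1, the smallest that 3 against 3 samples can give. The difference was 0.51 between the samples with fewer beads and 0.83 between those with more, a sign that groups without overlap must keep. It was 0.56 without WT replicate 3 and 0.52 without *Cmah*-null replicate 3, under 1.5-fold in both cases, and between 0.63 and 0.70 without any one of the other samples. With null replicates 1 and 2 averaged it was 0.67, with a limma adjusted p of 0.772.

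None of the other chains of the cartilage class passed a threshold. *Col2a1*, the fibril of type II collagen to which type IX binds, had log2 signals of 9.93, 10.28 and 8.52 in WT and 9.13, 9.26 and 9.65 in null samples. The null samples lay within the WT range, and the log2 fold change was -0.23 (SE 0.47). A second probe of *Col2a1* gave -0.04. Without WT replicate 3, *Col2a1* fell by 0.76 on the log2 scale and passed 1.5-fold with p. *Col9a1* and *Col9a3*, the partner chains of *Col9a2* in type IX collagen, were near background. *Col9a1* was detected on 2 WT and 3 null arrays and had log2 signals of 7.46, 7.37 and 7.50 in WT and 7.58, 7.55 and 7.61 in null samples, a difference of 0.13 without overlap. Further probes of *Col9a1*, detected on no array, had the other sign (-0.088 and -0.0045). *Col9a3* was detected on no array. *Col11a2* had log2 signals of 7.41, 7.26 and 7.33 in WT and 7.61, 7.45 and 7.53 in null samples (0.19), also without overlap, but was detected on only 1 null array. *Col11a1* (-0.05) and *Col10a1* (0.14), the chain of hypertrophic cartilage, were detected on 2 and 1 arrays.

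The 13 cartilage cell markers found on the array had sums that overlapped between genotypes. Their summed normalized signal on the linear scale was between 5914 and 8032 in WT and between 6055 and 9992 in null samples, with *Matn3*, *Lect1*, *Sox6* and *Cilp* detected on no array. The sum was highest in *Cmah*-null replicate 3, where *Col9a2* was highest as well. None of the 13 passed 1.5-fold with p, and their part in the *Col9a2* difference was not tested. A difference in the number of cells of a type and one in RNA per cell cannot be told apart in bulk tissue.

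The others include the collagen with the highest log2 fold change, *Col17a1*, a transmembrane collagen that anchors basal keratinocytes to the basement membrane. Its log2 signals were 10.52, 10.84 and 12.33 in WT and 12.06, 12.13 and 12.88 in null samples. WT replicate 3 lay with the null samples, and the other 2 WT samples lay below them all. The log2 fold change was 1.12 (SE 0.51, 95% interval -0.14 to 2.39, limma adjusted p = 0.623), and 2 further probes gave 1.03 and 0.98. The probe at 0.98 passed 1.5-fold with an unadjusted limma p of 0.0391 (adjusted p 0.569), and its groups overlapped. The difference was 1.57 between the samples with fewer beads and 1.29 between those with more. Without WT replicate 3 it was 1.67 and passed 1.5-fold with p. Epidermal markers had the same order over the WT samples. The summed signal of *Krt5*, *Krt14* and the other 2 epidermal markers found was 28700, 40670 and 111500 in WT and 97630, 94870 and 106900 in null samples. None of these 4 passed 1.5-fold with p, and their part in the *Col17a1* difference was not tested.

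*Col28a1*, a collagen of peripheral nerve that lies around non-myelinated regions of glia, was the only collagen lower in null samples without overlap. Its log2 signals were 8.54, 8.16 and 8.01 in WT and 7.71, 7.61 and 7.70 in null samples. The log2 fold change was -0.57 (SE 0.15, limma adjusted p = 0.453), just short of 1.5-fold, and was -1.22 with the neqc background correction and normalization. It was past 1.5-fold with p without WT replicate 2 (-0.60) and without WT replicate 3 (-0.68), and was -0.41 without WT replicate 1. The 7 markers of myelin-forming Schwann cells, listed after the values of *Col28a1* were seen, summed to 75150, 33220 and 26540 in WT and to 32070, 32860 and 37410 in null samples. WT replicate 1 was highest for both, but the sums of the null samples lay within the WT range, and their part in the *Col28a1* difference was not tested.

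*Col23a1*, a transmembrane collagen, had log2 signals of 8.88, 8.97 and 8.77 in WT and 9.19, 9.12 and 9.34 in null samples. The groups did not overlap, and the log2 fold change was 0.34 (SE 0.10, limma adjusted p = 0.479). *Col14a1*, which lies on the surface of type I fibrils, had log2 signals of 8.38, 8.45 and 8.36 in WT and 8.54, 8.58 and 8.64 in null samples, a small difference of 0.19 without overlap. Its unadjusted limma p of 0.0367 was above 0.05 without any one of the 6 samples (0.0511 to 0.0944). *Col8a2*, a short-chain collagen of the corneal Descemet's membrane, had log2 signals of 7.96, 8.33 and 8.13 in WT and 8.56, 8.30 and 8.88 in null samples (0.44, SE 0.18). One null sample lay within the WT range. *Col8a2* had an unadjusted limma p of 0.0483, and without any one of 4 of the 6 samples it was above 0.05.

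Type VI collagen forms beaded filaments around cells, and *Col6a1* and *Col6a2* encode chains that assemble in 1 molecule. *Col6a1* had log2 signals of 12.62, 13.08 and 12.24 in WT and 12.40, 12.38 and 13.08 in null samples (-0.03). *Col6a2* had log2 signals of 10.35, 9.28 and 8.25 in WT and 9.47, 9.57 and 9.40 in null samples (0.19). The order of the WT samples was not the same for both partners. *Col12a1*, another fibril-associated chain, was at 0.22, and *Col16a1* was at -0.14, each with a null mean inside the WT range. Of the further probes of collagens, 22 in all, 6 were detected on all arrays, and none of these 6 had another sign than the probe used.

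The spread within a genotype was wide for the collagens. Among the 22 detected on all arrays, the median SD of the WT samples was 0.68 on the log2 scale, beside 0.20 over the 9907 symbols detected on all arrays. For 13 of the 22 the WT SD was larger than that of over 90% of these symbols, and *Col1a1* was above 99.96% of them. In null samples the median SD was 0.41, beside 0.29. The median size of the log2 fold change was 0.30, beside 0.23. *Col9a2* (0.12), *Col14a1* (0.05) and *Col23a1* (0.10) were among the few with a small SD in WT.

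**Figure D3:**
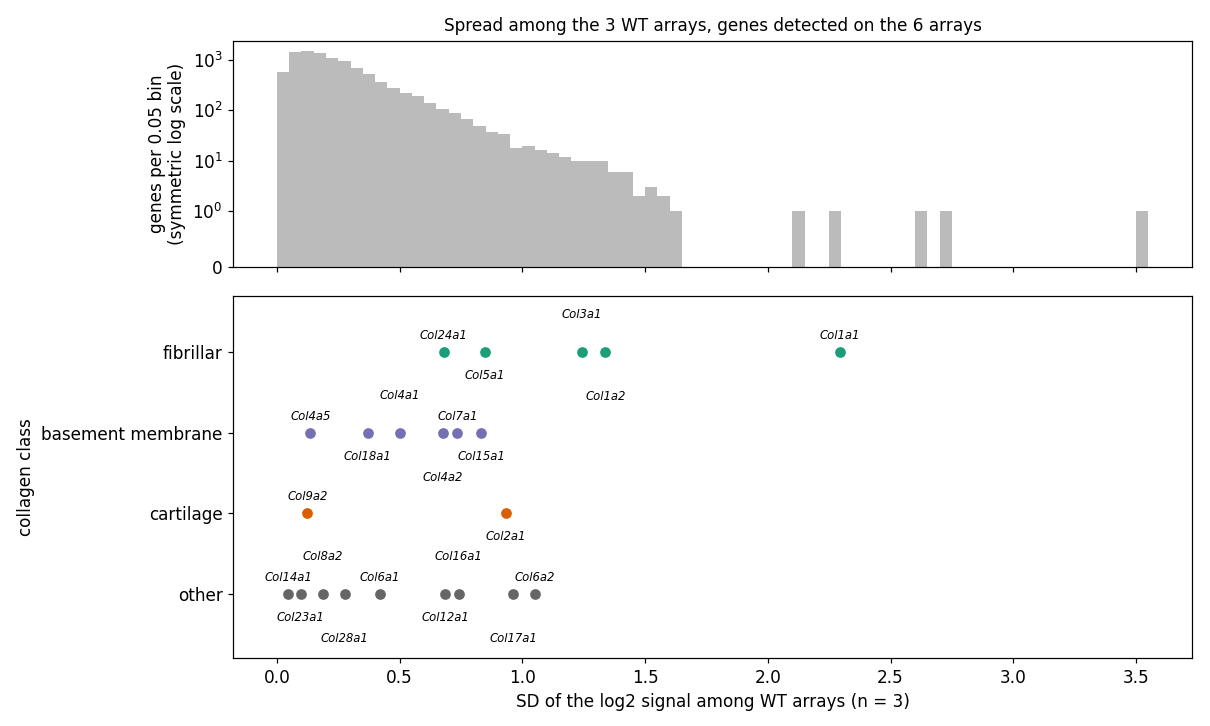
SD of the log2 signal among the 3 WT arrays. The upper panel counts the 9907 symbols detected on all arrays in bins of 0.05 (symmetric log scale), and the lower panel shows the 22 collagens by class, with vertical label positions chosen only for legibility. The median is 0.68 for the collagens and 0.20 for all these symbols, and *Col1a1* lies at 2.29.

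The spread had a common order. WT replicate 3 was the lowest WT sample for 18 of the 22 collagens, among them all 5 fibrillar ones, and for 32.3% of the 9907 symbols. *Cmah*-null replicate 3 was the highest null sample for 20 of the 22, and for 50.8% of the symbols. Relative to each gene's mean over the arrays, the median of the 5 fibrillar collagens was 0.42, 0.96 and -0.66 in WT and -0.68, -0.57 and 0.97 in null samples. That of the 6 basement membrane collagens was 0.34, 0.04 and -0.25 in WT and -0.28, -0.23 and 0.54 in null samples. In both classes WT replicate 3 was near *Cmah*-null replicates 1 and 2. *Cmah*-null replicate 3 was near WT replicate 2 in the fibrillar class and above all WT samples in the basement membrane class.

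Within the arrays of fewer and of more beads, the differences of many collagens had opposite signs. Each set has 1 sample in 1 of its genotypes, so these values carry no test. Between the samples with fewer beads (WT replicate 1 against *Cmah*-null replicates 1 and 2), *Col1a1*, *Col1a2*, *Col3a1* and *Col4a1* differed by -2.37, -1.91, -1.68 and -1.47. Between those with more beads (WT replicates 2 and 3 against *Cmah*-null replicate 3) they differed by 0.96, 0.29, 0.13 and 0.44. In all, 13 of the 22 collagens had opposite signs in the 2 sets. *Col7a1*, *Col8a2*, *Col9a2*, *Col14a1*, *Col17a1*, *Col18a1* and *Col23a1* were higher in null samples in both sets, and *Col24a1* and *Col28a1* were lower in both. For *Col9a2*, *Col14a1*, *Col23a1* and *Col28a1*, whose groups do not overlap, any such split gives the same sign.

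**Figure D4:**
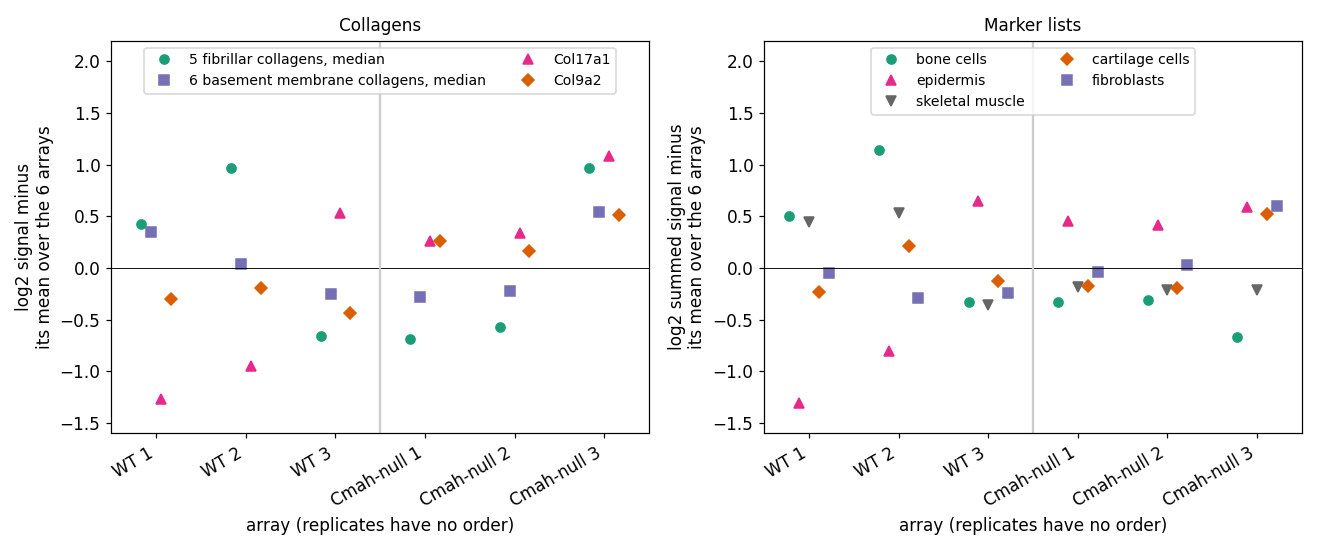
Left, log2 signal of the fibrillar and basement membrane collagens (medians of 5 and 6 genes) and of *Col17a1* and *Col9a2* on each array, minus the mean over the 6 arrays. Right, log2 of the summed signal of 5 marker lists on the same scale, with points of a sample set side by side for legibility. Fibrillar collagens and bone markers are high in WT replicates 1 and 2, and *Col17a1* and epidermal markers are low there, while *Cmah*-null replicate 3 has the fewest bone markers and high fibrillar collagens.

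Markers of other tissues moved over the same samples. The 12 bone cell markers found summed to 87510, 136300 and 49220 in WT and to 49130, 50020 and 38920 in null samples, with *Sost* detected on no array. Bone markers and *Col1a2* were both highest in WT replicate 2, but *Cmah*-null replicate 3 had the lowest bone sum and the highest *Col1a2* of the null samples. *Col1a1* was highest in WT replicate 1 (15.33, against 14.19 in WT replicate 2). The skeletal muscle sum was 319600, 337600 and 182500 in WT and between 202100 and 205500 in null samples. The fibroblast sum was 25400, 21500 and 22320 in WT and 25660, 26830 and 39980 in null samples, highest in *Cmah*-null replicate 3, where the fibrillar collagens were also highest among null samples. Of the 8 fibroblast markers, all detected on every array, *Mfap5* (-0.99) and *Fap* (-0.82) were lower at 1.5-fold with p, as were 4 of 5 brown fat markers and 1 of 7 endothelial markers, where 2.54% of the symbols detected on all arrays were. The brown fat sum was lower in null samples (10040 to 24980) than in WT (41110 to 73660), as was the endothelial sum (5419 to 5646, against 7255 to 8138). The blood and marrow sum was between 91020 and 122600 in WT and between 85620 and 103800 in null samples, and that of the non-sensory cochlea between 12810 and 25870 and between 20640 and 21850. The part of these tissues in the collagen values was not tested.

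Genes that make, bind or accompany collagen were compared in the same fit, from lists of 5 roles with 69 genes found on the array. Of these, 4 were higher at 1.5-fold with p (1.61% of all symbols, and 2.73% of those detected on all arrays), 0 were lower (1.46% and 2.54%), and none had an adjusted p under 0.05. Among 28 genes of collagen processing, *Crtap*, which is needed for prolyl 3-hydroxylation, was higher by 0.71 (10.07, 10.25 and 9.87 in WT and 10.68, 10.68 and 10.96 in null samples). Among 8 collagen receptors, *Ddr2*, a receptor tyrosine kinase for fibrillar collagen, was higher by 0.63 (8.23, 8.0 and 7.99 in WT and 8.38, 8.70 and 9.03 in null samples). Among 13 partners in the basement membrane, *Lama1*, a laminin chain, was higher by 0.65 (8.62, 8.45 and 8.60 in WT and 9.05, 8.97 and 9.60 in null samples). None of the 9 genes of TGF-β signalling, which induces fibrillar collagens, passed. The median of that list was 0.31, with 8 genes higher and 1 lower. Its summed signal was between 18250 and 29600 in WT and between 25950 and 51920 in null samples, highest in *Cmah*-null replicate 3. Its part in the collagen values was not tested.

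Among the 11 small leucine-rich proteoglycans, which coat collagen fibrils, *Chad*, the chondroadherin of cartilage, was higher by 1.07 (11.79, 11.92 and 12.37 in WT and 12.71, 12.64 and 13.93 in null samples). The median of the list was -0.42, with 4 genes higher and 7 lower. *Dcn*, *Lum* and *Ogn*, which regulate fibril growth and were named after their values were seen, were lower in *Cmah*-null replicate 3, at 13.46, 10.38 and 10.69. Their other null values were 15.14 and 15.11, 12.15 and 12.11, and 13.17 and 13.09. *Bgn*, *Fmod* and *Prelp* were highest in that sample, at 15.03, 12.02 and 14.57, as *Chad* was. Of the 11 genes, these 4 had their highest null value there, as the fibrillar collagens detected on all arrays did, and the other 7 had their lowest. The summed signal of the list was 92650 in that sample and between 71030 and 89890 in the others.

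The precision sets how these values can be read. For 16 of the 22 collagens detected on all arrays the 95% interval held 0 and a change of at least 1.5-fold, and for 13 of them in both directions, so the data are compatible with no change and with changes of that size. For *Col4a5*, *Col14a1* and *Col23a1* the whole interval lay within 1.5-fold. The upper ends for *Col4a5* (0.576) and *Col23a1* (0.579) lay just under that cut (0.585). Under median scaling *Col23a1* passed 1.5-fold with p. The intervals of 5 collagens excluded 0 (*Col8a2*, *Col9a2*, *Col14a1*, *Col23a1* and *Col28a1*).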

How the data were processed

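Total RNA of cochlear tissue of 3 WT and 3 *Cmah*-null samples was measured on 1 Illumina MouseRef-8 v2 array each. The authors deposited raw intensity values (the average bead signal, linear, with its bead standard error and bead number) without background subtraction. A detection p value per probe came with them, per the file headers. The authors' normalized table holds log2 values. Quantile normalization of the log2 raw signals returned them to within 5e-07, and the software is not given in the sources used here. Its columns call the second group "old", and the numbers in their names were used to match them to the *Cmah*-null samples. Its columns with the authors' own comparison (means, SDs, fold change, local pooled error statistic and adjusted p) were not used, nor were 12 columns repeating signals and detection p. The number of arrays limits the precision.

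The log2 values of all 25697 probes were compared with limma 3.58.1 in R 4.3.3 (lmFit, eBayes, two-sided, no covariate; Benjamini-Hochberg over all probes). The limma fit alone was tried on simulated data with independent noise between arrays. The probe choice, counts and lists were not part of that trial. Thresholds were an adjusted p under 0.05, and 1.5-fold with an unadjusted p under 0.05. The collagens and all gene lists were chosen with earlier results of these data known. Signals on every array are given for collagens past 1.5-fold with p, the 2 largest changes in each class, chains linked to hearing loss and their partners. Other collagens named with such values were chosen after these were seen. Gene IDs of 32 of 36 collagens matched RefSeq. Its upstream sequences (GRCm38.p6) were searched in Python 3.11.15, and figures were drawn with matplotlib 3.10.9. The 16 alternatives were neqc (offset 16), median scaling, quantile normalization computed here, a block for the replicate number, leaving out each of the 6 arrays, dropping probes not detected on 3 or more arrays, a prior with trend and robust, a block for bead number, *Cmah*-null replicates 1 and 2 averaged, and 2 other probe choices.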

Additional observations from a re-analysis of the deposited data

How the results depend on the processing

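Over the 16 alternatives no collagen reached an adjusted p under 0.05 (lowest 0.0983, *Col9a2* under median scaling), and *Col9a2* was higher in all (0.52 to 1.00). Collagens higher at 1.5-fold with p numbered 1 in the comparison as reported, 2 with neqc (*Col8a2*, *Col9a2*), 4 with median scaling (*Col9a2*, *Col17a1*, *Col18a1*, *Col23a1*), 2 with the trend and robust prior and 2 with the bead number block (*Col9a2*, *Col17a1* in both), and 0 to 1 with 1 array left out. Collagens lower numbered 0 as reported, 1 with neqc and 1 with the bead number block (*Col28a1* in both), and 0 to 4 with 1 array left out. The samples share only a replicate number: deviations of same-numbered samples correlated at 0.01, -0.15 and -0.00, no sample correlated best with its own number, and with the replicate block 2 collagens were higher (*Col9a2*, *Col17a1*). Median scaling moved the median of the detected symbols from 0.04 to 0.34. It turned *Col1a1* to 0.17, *Col2a1* to 0.055, *Col4a2* to 0.071, *Col5a1* to 0.38, *Col6a1* to 0.47 and *Col16a1* to 0.35. Relative to that median, *Col1a1* (-0.17), *Col2a1* (-0.28) and *Col4a2* (-0.26) stayed lower, and *Col5a1* (0.039), *Col6a1* (0.14) and *Col16a1* (0.019) were still turned. *Col9a2* was at 0.66. The class medians were -0.45 (fibrillar), -0.11 (basement membrane), -0.28 (cartilage) and 0.065 (others), against -0.39, 0.076, 0.091 and 0.047 in the comparison as reported. The median of all collagens was -0.255, against -0.043. *Col14a1* lost its unadjusted p under 0.05 with median scaling (0.0663), the replicate block (0.0901), the detection filter (0.184), the trend and robust prior (0.273) and the null pair averaged (0.0717), and *Col23a1* with the trend and robust prior (0.109). *Col8a2* lost it with the detection filter (0.0643), the replicate block (0.0846) and the trend and robust prior (0.0607). The bead number block turned *Col5a1* to 0.054, *Col6a1* to 0.093, *Col16a1* to 0.12 and *Col6a2* to -0.10, and averaging *Cmah*-null replicates 1 and 2 turned the first 3 to 0.14, 0.087 and 0.13. With 1 array left out, *Col1a1* ranged from -1.61 to 0.59, *Col2a1* from -0.76 to 0.12, *Col5a1* from -0.69 to 0.17, *Col6a1* from -0.26 to 0.19, *Col6a2* from -0.33 to 0.72, *Col7a1* from -0.20 to 0.54, *Col12a1* from -0.16 to 0.49, *Col15a1* from -0.33 to 0.50, *Col16a1* from -0.68 to 0.22, *Col18a1* from -0.14 to 0.48 and *Col24a1* from -0.64 to 0.0035. The cartilage median was 0.32 with neqc, 0.061 with median scaling and 0.014 with the mean of the probes of a symbol. That of the other collagens was 0.40 with median scaling and -0.13 to 0.20 with 1 array left out. Of the pathway genes, 18 were higher with median scaling and 11 with the bead number block, and 2 to 5 with 1 array left out. Lower were 1 with the detection filter, 1 with the trend and robust prior and 0 to 4 with 1 array left out. The causes were not tested.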
